A study of Bos taurus with 39 samples.

Results

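Of 39 Holstein cows whose milk somatic cells were sequenced, 17 carry a month tag that ends in 19 in the name of their column in the deposited table, and these 17 were compared as 13 LOW RFI and 4 HIGH RFI cows. The members were chosen by that tag alone, with no measured value, and the remaining 22 columns carry a tag that ends in 20. RFI is read here as residual feed intake, so that LOW RFI names the feed-efficient animals. The series asks which genes differ between both extremes of feed efficiency. All cows were Holstein dairy cows with no treatment named. Milk was drawn through a plastic cannula, RNA was taken with Trizol, and TruSeq libraries were made, 1 library per cow. The sources used here give no age, lactation stage or herd, and do not say what the month tag dates. The cows are numbered in label order, which pairs no animals, and they run from 1 to 15 for LOW RFI with 4 and 14 absent because those carry a tag of the later year.

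Milk somatic cells are the cells shed into milk. They are mostly leukocytes, namely macrophages, neutrophils and lymphocytes, with some epithelial cells of the gland. The secretory epithelium makes the caseins and whey proteins, lactose and milk fat, and its RNA is also carried into milk inside fat globules. Leukocytes in milk answer infection of the udder, and interferon response genes mark one branch of that answer. Feed efficiency is thought of as a whole-body trait, and milk cells sample only one organ of it.

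The 17 libraries held 64507143 to 204905052 mapped reads, as recovered from the RPKM values, with 80.9% to 92.8% of them in genes, and mean depth differed by less than the spread between cows (two-sided exact permutation p = 0.482). Markers of all the leukocyte types and of mammary epithelium were present, among them CTSB, S100A12, CD3E and KRT19. In the erythrocyte list only HBA of 9 members passed the filter on low values. Month and group were uneven: September held 4 LOW RFI and 2 HIGH RFI cows, October 2 and 0, November 3 and 1, December 4 and 1. A mark after the animal number stood in the column names of 6 LOW RFI libraries (cows 1, 6, 7, 8, 11 and 15) and of no HIGH RFI library, so the mark and the group cannot be told apart among marked libraries. A different suffix stood after the month tag of LOW RFI 3, and that library was counted as unmarked. What the mark and the suffix mean is not stated.

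LOW RFI and HIGH RFI cows differed in no gene past the test, and the differences that came closest were nearly all lower in LOW RFI. Of 11334 genes with at least 1 RPKM in at least 4 cows, limma-trend on log2(RPKM + 1) called 0 at a Benjamini-Hochberg adjusted p under 0.05 (0.0% of the genes). The adjusted p was 0.487 at its smallest. Unadjusted, 898 genes had a p under 0.05 (7.92%), of which 875 were lower in LOW RFI (7.72% of all tested) and 23 higher (0.203%). The log2 difference, LOW RFI minus HIGH RFI, was below 0 for 9332 genes (82.3%), and its median over all genes was -0.26. The size of that shift moved with the scaling. With quantile normalization the median was -0.0080 and the split at an unadjusted p under 0.05 was 231 lower against 161 higher. With each library rescaled without the milk protein lists the median was -0.15, with 643 lower and 38 higher. Single cows also moved the 875, to 268 without HIGH RFI 2 (2.36%), 464 without HIGH RFI 1 (4.09%), 562 without LOW RFI 11 (4.96%), 1453 without LOW RFI 13 (12.8%) and 1655 without HIGH RFI 4 (14.6%). The 23 became 1 without HIGH RFI 1 or HIGH RFI 2 (0.00882%) and 148 without HIGH RFI 3 (1.31%). The 38 gene lists held 894 member rows, of which 820 passed the filter on low values, so counts below run over tested members only. Their counts of lower members stand beside the 82.3% of all genes, and their counts at an unadjusted p under 0.05 beside 7.72% lower and 0.203% higher. Counts with a cow left out stand beside the share of all genes in the same fit. That share ran from 2.36% to 14.6% lower and from 0.00882% to 1.31% higher over the cows left out. Medians of gene lists are also given relative to the -0.26 of all genes, and with the value under another scaling where its sign turned. Because the plain log scale adds 1 RPKM, it understates the differences of low genes.

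RNA for milk proteins held the 4 features of highest mean level, and its share of the total was higher in LOW RFI, though not beyond the spread between cows. The caseins were summed with the list of whey and other milk proteins, which includes SPP1, a gene that macrophages also express. Together they took 24.5 ± 18.1% of all RPKM in LOW RFI (n = 13) and 9.36 ± 10.9% in HIGH RFI (n = 4), given as mean ± SD. The difference was 15.2 percentage points (two-sided exact permutation p = 0.128 over 2380 splits). Caseins alone took 16.0 ± 12.8% in LOW RFI and 4.97 ± 7.06% in HIGH RFI (exact permutation p = 0.107). By the summed share, used from here on, the 13 LOW RFI cows ran from 1.16% to 52.7% with a median of 19.5%. HIGH RFI 1 to 4 were at 0.954%, 4.84%, 25.3% and 6.34%. The groups overlapped, with 11 of 13 LOW RFI cows above the HIGH RFI median and 6 above all 4 HIGH RFI cows. HIGH RFI 3 decided the side of the threshold: without it the difference was 20.5 points (exact permutation p = 0.0393). By month the difference was 20.9 points in September, with an exact p of 0.267 where 0.0667 is the smallest that 4 against 2 cows can give, then -2.79 points in November and 19.8 points in December, each of these against 1 HIGH RFI cow. The marked libraries had the larger shares, with a median of 38.0% (n = 6), against 11.1% in the 7 unmarked LOW RFI libraries and 5.59% in HIGH RFI cows. The highest unmarked share, 41.1%, was that of LOW RFI 3, whose name carries the other suffix. Over unmarked libraries alone the difference was 5.31 points (exact permutation p = 0.576). In such bulk samples fewer cells of a type and less RNA per cell cannot be told apart.

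**Figure D1:**
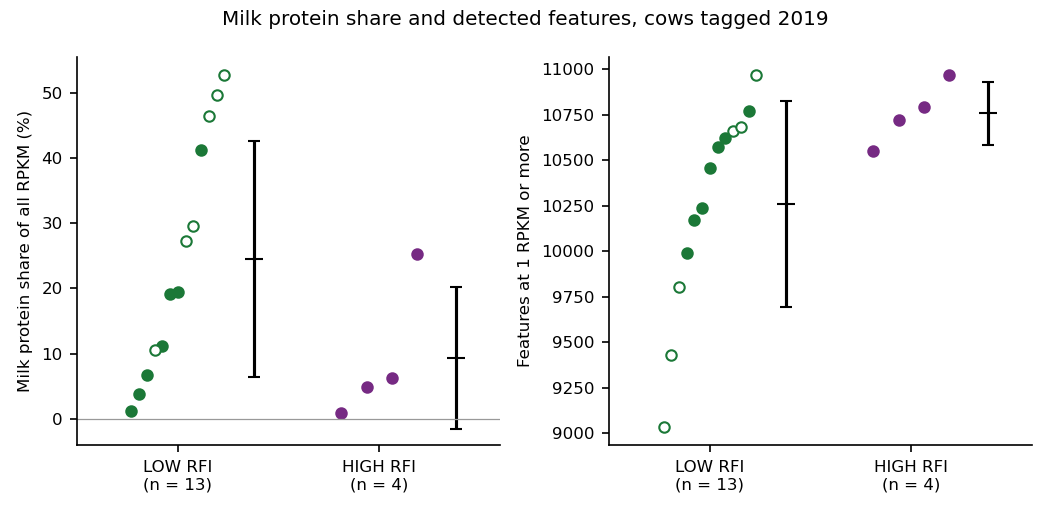
Left, share of all RPKM taken by the caseins and the list of whey and other milk proteins (%), and right, number of features at 1 RPKM or more, for each of the 13 LOW RFI (left, green) and 4 HIGH RFI (right, purple) cows with a 19 tag. Open circles are libraries with a mark in the column name, and bars give mean ± SD. Points are spread sideways by rank within a group. On the left the LOW RFI cows span 1.16% to 52.7%, with 3 HIGH RFI cows inside that range and HIGH RFI 1, at 0.954%, just below it.

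4 of 4 casein genes were higher in LOW RFI, and the list had a median log2 difference of 2.51 (2.77 when set against all genes). In the following, LOW RFI values are the lowest, the median and the highest of the 13 cows, and HIGH RFI values are those of HIGH RFI 1, 2, 3 and 4. CSN2, beta-casein and the feature of highest mean level, was at 362, 36420.4 and 118139 RPKM in LOW RFI cows, against 266, 2851, 39582 and 9789 RPKM in HIGH RFI cows. HIGH RFI 1 held the least and HIGH RFI 3 lay above the LOW RFI median. The log2 difference of CSN2 was 2.38 (SE 1.27, limma p = 0.0765). CSN1S2, alpha-s2-casein, was at 71.3, 5673 and 30396 RPKM in LOW RFI cows, against 47.8, 519, 6459 and 996 RPKM in HIGH RFI cows, a difference of 2.87 (SE 1.26, limma p = 0.0331). CSN1S1, alpha-s1-casein, differed by 2.65 (SE 1.27, limma p = 0.0493), and CSN3, the kappa-casein that coats the micelle, by 2.18 (SE 1.27, limma p = 0.10). CSN1S2 and CSN1S1 thus had an unadjusted p under 0.05, where 0.203% of all genes did in that direction, and neither passed after adjustment. All 4 were lowest among HIGH RFI cows in HIGH RFI 1 and highest in HIGH RFI 3. Without the marked libraries the median of the list was 1.42 and 0 of 4 had a p under 0.05 (0.00882% of all genes did so), and over leaving out each cow in turn it ran from 1.30 to 3.59, the lowest without HIGH RFI 1. The 2 became 0 without HIGH RFI 1 or HIGH RFI 2, 4 without HIGH RFI 3 (1.31% of all genes) and 1 without HIGH RFI 4, with quantile normalization or with rescaling. They became 4 without LOW RFI 13 (0.953%), 3 without LOW RFI 9 (0.821%), and 1 without any other LOW RFI cow but LOW RFI 6, where 2 were left.

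Of 9 whey and other milk protein genes, 6 were higher in LOW RFI and the median difference was 1.83 (2.09 relative). LALBA, alpha-lactalbumin, the subunit that directs lactose synthesis, was at 32.7, 2549 and 10552 RPKM in LOW RFI cows, against 18.5, 160.0, 2262 and 743 RPKM in HIGH RFI cows. It lay above all 4 HIGH RFI cows in 7 of 13 LOW RFI cows, and its difference was 2.84 (SE 1.27, limma p = 0.0375). PAEP, beta-lactoglobulin, differed by 2.42 (SE 1.27, limma p = 0.0705). SPP1, osteopontin, which macrophages also make, lay the other way at 936, 3826 and 10999 RPKM in LOW RFI cows, against 2397, 15373, 8471 and 4158 RPKM in HIGH RFI cows, a difference of -0.61 (SE 0.56, limma p = 0.295). The highest SPP1 value of all 17 cows was that of HIGH RFI 2. FTH1, ferritin heavy chain and 1 of the 5 features of highest mean level beside CSN2, PAEP, CSN1S1 and CSN3, differed by -0.61 (SE 0.43, limma p = 0.171). The whey list median ran from 0.76 (without HIGH RFI 1) to 2.72 (without HIGH RFI 3) when single cows were left out, and was 0.82 without the marked libraries. Whey members higher at an unadjusted p under 0.05 numbered 0 to 6 (without HIGH RFI 3, 1.31% of all genes).

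Most genes of the milk fat globule and of sterol synthesis were higher in LOW RFI, and lists of fatty acid genes went both ways. Among 10 tested members of the fat globule membrane and droplet coat list, 8 were higher and 0 had an unadjusted p under 0.05, with a median of 1.31 (1.57 relative). FABP3, which binds fatty acids, was at 18.0, 731 and 3199 RPKM in LOW RFI cows, against 14.0, 58.6, 754 and 407 RPKM in HIGH RFI cows, a difference of 2.04 (SE 1.08, limma p = 0.0735). MFGE8, lactadherin, was at 19.1, 192 and 455 RPKM in LOW RFI cows, against 13.6, 26.9, 124 and 77.4 RPKM in HIGH RFI cows, a difference of 1.56 (SE 0.76, limma p = 0.0514). CIDEA, a droplet protein, differed by 1.49 (SE 0.73, limma p = 0.0552), and PLIN2, the coat protein of droplets in many cell types, by 0.10. MFGE8 and CIDEA each exceeded the HIGH RFI median in 10 of 13 LOW RFI cows. The differences of the 10 members lay between -0.82 and 2.14. The fat globule median ran from 0.83 (without HIGH RFI 1) to 2.04 (without HIGH RFI 3) when single cows were left out, and was 0.49 without the marked libraries. Fat globule members higher at an unadjusted p under 0.05 numbered 0 to 7 (without HIGH RFI 3, 1.31% of all genes).

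Of 16 genes of fatty acid synthesis and desaturation, 11 were higher, with differences between -0.47 and 1.57, and the median was 0.064 (0.33 relative). SCD, the desaturase of stearic acid, was at 15.9, 173 and 609 RPKM in LOW RFI cows, against 16.3, 25.6, 157 and 85.3 RPKM in HIGH RFI cows, a difference of 1.49 (SE 0.71, limma p = 0.0479). FASN, fatty acid synthase, was at 16.9, 174 and 456 RPKM in LOW RFI cows, against 13.2, 14.5, 166 and 113 RPKM in HIGH RFI cows, a difference of 1.57 (SE 0.76, limma p = 0.0527). Values of HIGH RFI 1 and 2 were near the bottom of the LOW RFI range for SCD and below that range for FASN. Fatty acid uptake and triglyceride assembly genes had 5 higher and 10 lower members of 15, with a median of -0.29 (-0.031 relative). FABP4, a fatty acid binder of adipocytes and macrophages, was at 77.6, 176 and 1194 RPKM in LOW RFI cows, against 365, 1812, 247 and 1132 RPKM in HIGH RFI cows, a difference of -1.66 (SE 0.61, limma p = 0.0133). Its HIGH RFI values lay above 10 of 13 LOW RFI cows. ACSL1, which activates long-chain fatty acids, differed by -0.51 (SE 0.22, limma p = 0.0323). The fatty acid synthesis median ran from 0.0047 (without LOW RFI 5) to 0.16 (without HIGH RFI 4) when single cows were left out, and was 0.32 with quantile normalization and 0.17 with rescaling. Fatty acid synthesis members higher at an unadjusted p under 0.05 numbered 0 to 4 (without HIGH RFI 3 or LOW RFI 13). Without these cows 1.31% and 0.953% of all genes were higher at that p. The fatty acid uptake median ran from -0.31 (without LOW RFI 9) to -0.16 (without HIGH RFI 1) when single cows were left out, and was -0.16 without the marked libraries, -0.019 with quantile normalization and -0.17 with rescaling. Fatty acid uptake members lower at an unadjusted p under 0.05 numbered 1 (without HIGH RFI 1 or HIGH RFI 2) to 3. Fatty acid uptake members higher at an unadjusted p under 0.05 numbered 0 to 4 (without HIGH RFI 3, 1.31% of all genes).

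Cholesterol synthesis and sterol sensing genes were higher in LOW RFI in 19 of 21 members by a small amount, with a median of 0.34 (0.61 relative). 1 member had an unadjusted p under 0.05 as deposited, and this became 9 with quantile normalization and 7 with rescaling, where 1.42% and 0.335% of all genes did so in that direction. MVK, mevalonate kinase, was at 9.52, 16.4 and 23.3 RPKM in LOW RFI cows, against 4.96, 8.57, 14.9 and 16.6 RPKM in HIGH RFI cows, a difference of 0.61 (SE 0.26, limma p = 0.0312). FDFT1, squalene synthase, was at 37.8, 73.1 and 163 RPKM in LOW RFI cows, against 25.9, 44.4, 55.9 and 64.5 RPKM in HIGH RFI cows, a difference of 0.63 (SE 0.32, limma p = 0.0614), and 8 LOW RFI cows lay above all HIGH RFI cows. SREBF2, the transcription factor of the pathway, differed by -0.058, but 0.16 under quantile normalization and 0.074 under rescaling. The cholesterol list median was 0.59 with quantile normalization. Cholesterol members higher at an unadjusted p under 0.05 numbered 0 (without HIGH RFI 1 or HIGH RFI 2) to 4 (without HIGH RFI 4). Of all genes, 0.00882% were higher at that p without HIGH RFI 1 or HIGH RFI 2, and 51 of 11334 without HIGH RFI 4.

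Transporters of the secreting cell went both ways. Of 23 solute transporters, 9 were higher and 14 lower in LOW RFI (median -0.22, 0.038 relative, 0.060 with quantile normalization), with 3 higher and 2 lower at an unadjusted p under 0.05, beside 0.203% and 7.72% of all genes. ATP2C2, a calcium pump of the secretory pathway, was at 4.69, 32.9 and 71.5 RPKM in LOW RFI cows, against 2.17, 3.94, 23.9 and 10.6 RPKM in HIGH RFI cows, a difference of 1.6 (SE 0.65, limma p = 0.0223). ABCG2, which carries xenobiotics and riboflavin into milk, was at 0.712, 22.5 and 59.0 RPKM in LOW RFI cows, against 0.695, 1.69, 13.2 and 5.08 RPKM in HIGH RFI cows, a difference of 1.80 (SE 0.77, limma p = 0.0308). SLC30A1, a zinc exporter, lay lower at 1.39, 4.06 and 7.61 RPKM in LOW RFI cows, against 8.81, 8.40, 7.43 and 4.22 RPKM in HIGH RFI cows, a difference of -0.72 (SE 0.29, limma p = 0.0224). The amino acid carriers SLC1A5 and SLC3A2, which leukocytes also use, differed by -0.80 and -0.42. In the lactose and glucose entry list 11 of 14 were lower, beside 82.3% of all genes (median -0.34, -0.078 relative), among them the glucose transporters SLC2A8 and SLC2A3. SLC2A8 differed by -0.66 (SE 0.28, limma p = 0.0289), and SLC2A3 by -0.32, or 0.34 without the marked libraries. LALBA, given above, is also in that list. The solute transporter median ran from -0.28 (without LOW RFI 5) to -0.044 (without HIGH RFI 3) when single cows were left out, and was -0.11 without the marked libraries and -0.11 with rescaling. Solute transporter members lower at an unadjusted p under 0.05 numbered 0 (without HIGH RFI 1) to 4. Solute transporter members higher at an unadjusted p under 0.05 numbered 0 (without HIGH RFI 1 or HIGH RFI 2) to 6. Without LOW RFI 13 or LOW RFI 9 they were 6, where 0.953% and 0.821% of all genes were higher at that p. The lactose list median was -0.16 without the marked libraries, -0.14 with quantile normalization and -0.21 with rescaling. Lactose members lower at an unadjusted p under 0.05 numbered 0 (without HIGH RFI 2 or HIGH RFI 4) to 3 (without LOW RFI 13). In these fits 2.36%, 14.6% and 12.8% of all genes were lower at that p.

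Mammary epithelium markers were split in direction. Of 25 tested markers 14 were higher and 11 lower, with a median of 0.072 (0.33 relative). Summed levels were 676 to 4021 RPKM in LOW RFI cows, against 754 to 2287 RPKM in HIGH RFI cows. ELF5, the transcription factor of the milk-secreting lineage, was at 1.71, 129 and 487 RPKM in LOW RFI cows, against 1.51, 6.83, 138 and 119 RPKM in HIGH RFI cows, a difference of 2.03 (SE 1.16, limma p = 0.0950). KRT19, a luminal keratin, differed by 0.71 (SE 0.50, limma p = 0.171), KRT17, a basal keratin, by -1.11 (SE 0.57, limma p = 0.0664), and the tight-junction gene CLDN4 by -0.065, but 0.17 under quantile normalization and 0.070 under rescaling. ELF5 followed the order of the caseins over HIGH RFI cows, with HIGH RFI 3 highest and HIGH RFI 1 lowest. The prolactin, growth hormone and insulin signalling list was lower in 14 of 19, beside 82.3% of all genes (median -0.29, -0.026 relative), with the kinase JAK2 at -0.68, the feedback inhibitor CISH at -0.49 and the translation repressor EIF4EBP1 at 0.068, or -0.078 without the marked libraries. Secretory pathway and endoplasmic reticulum chaperone genes were lower in 26 of 29 (median -0.39, -0.13 relative), with the chaperone DNAJB11 (-0.58), the stress sensor ERN1 (-0.46) and CALR, calreticulin (-0.45), with SSR4, a translocon subunit, at 0.50. Amino acid response genes were near the background (median -0.23, 0.029 relative, 0.015 with quantile normalization), with PSPH and PHGDH of serine synthesis at -0.46 and -0.38 and the transcription factors ATF4 and CEBPB at 0.011 and -0.11, the last at 0.095 under quantile normalization and 0.028 under rescaling. None of these 3 lists had a member with an unadjusted p under 0.05. The mammary epithelium median ran from -0.087 (without LOW RFI 6) to 0.25 (without HIGH RFI 3) when single cows were left out, and was -0.12 without the marked libraries, 0.35 with quantile normalization and 0.20 with rescaling. The hormone signalling median ran from -0.33 (without LOW RFI 13) to -0.16 (without HIGH RFI 1) when single cows were left out, and was -0.099 without the marked libraries. The secretory pathway median ran from -0.49 (without HIGH RFI 3) to -0.22 (without HIGH RFI 1) when single cows were left out, and was -0.13 without the marked libraries, -0.17 with quantile normalization and -0.26 with rescaling. Secretory pathway members lower at an unadjusted p under 0.05 numbered 0 to 4 (without HIGH RFI 4, 14.6% of all genes). The amino acid response median ran from -0.29 (without HIGH RFI 2) to -0.068 (without HIGH RFI 1) when single cows were left out, and was -0.068 without the marked libraries and -0.11 with rescaling.

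**Figure D2:**
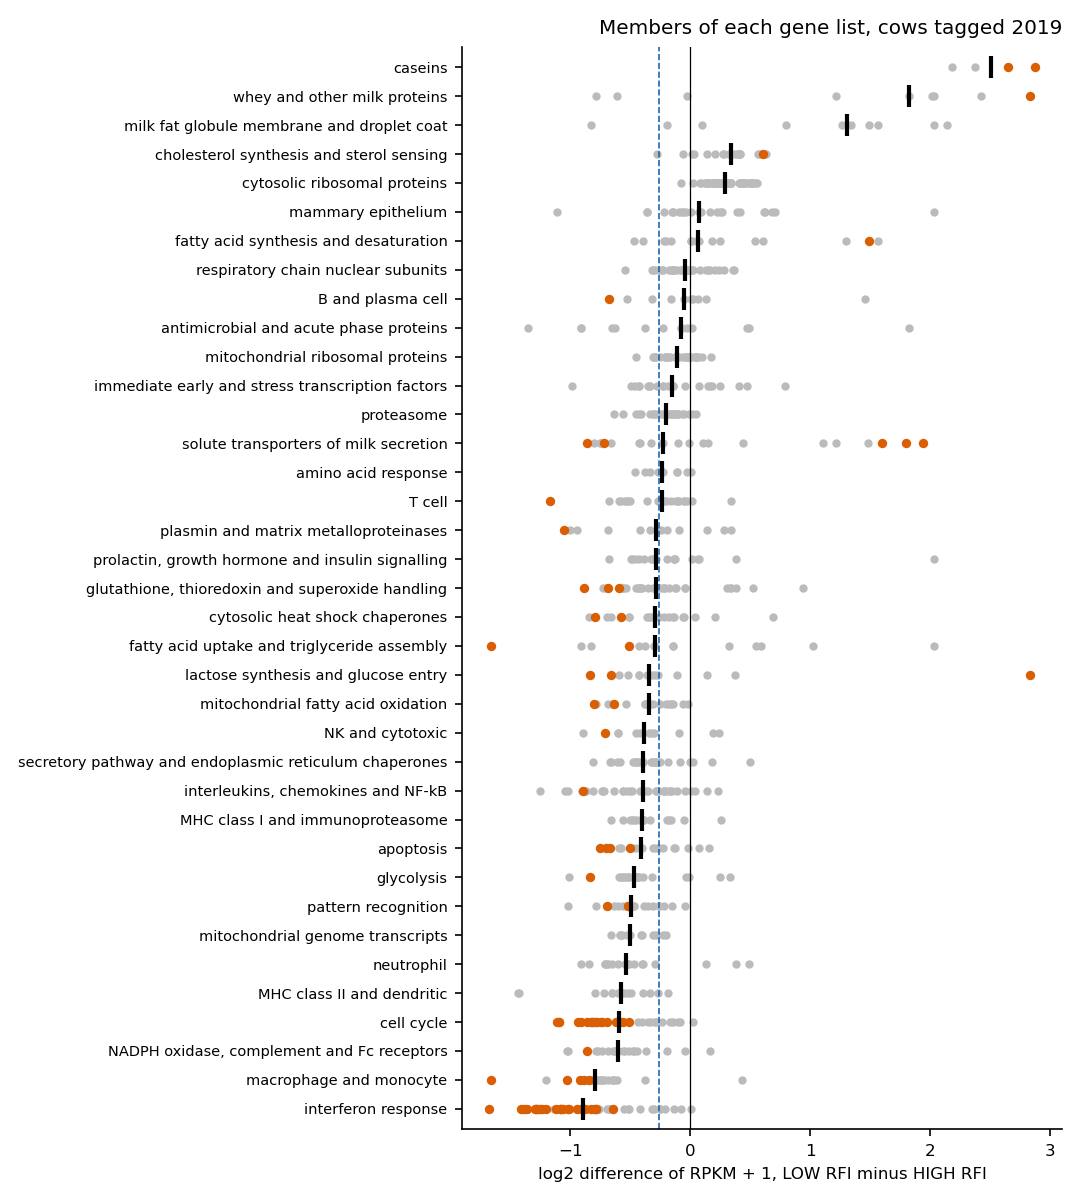
Log2 difference of RPKM + 1, LOW RFI minus HIGH RFI (x axis), for each tested member of the gene lists with at least 4 tested members (rows, sorted by median). Orange points have an unadjusted limma p under 0.05, grey points do not, black ticks are list medians and the dashed line is the median of all genes, -0.26. Caseins lie at the right end, and interferon response and macrophage genes at the left end.

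Macrophage genes were lower in LOW RFI in 26 of 27 tested members, with a median of -0.79 (-0.53 relative). There were 5 with an unadjusted p under 0.05 (18.5%, beside 7.72% of all genes). GPNMB, a glycoprotein of lipid-laden macrophages, was at 51.8, 186 and 322 RPKM in LOW RFI cows, against 315, 443, 216 and 362 RPKM in HIGH RFI cows, a difference of -1.02 (SE 0.36, limma p = 0.0106), and all 13 LOW RFI cows were under the HIGH RFI median. The lysosomal protease CTSB was at 1133, 2872 and 7638 RPKM in LOW RFI cows, against 4817, 6284, 3892 and 5451 RPKM in HIGH RFI cows, a difference of -0.69 (SE 0.42, limma p = 0.121), and APOE, the lipid carrier, differed by -0.85 (SE 0.56, limma p = 0.142). The list score per cow, the mean log2(RPKM + 1) over members, was 4.82, 6.09 and 7.37 in LOW RFI cows, against 7.14, 7.50, 6.52 and 6.37 in HIGH RFI cows. HIGH RFI 2 stood above all LOW RFI cows, HIGH RFI 1 near the top of their range and the others inside it. HIGH RFI 2 had the highest HIGH RFI value in 17 of 27 members and HIGH RFI 4 the lowest in 17. By month the score differed by -1.03 in September, -0.66 in November and -0.26 in December. Without the marked libraries the median was -0.40 and 1 member had a p under 0.05 (2.81% of all genes). The 5 became 1 without HIGH RFI 2 (2.36%) and 2 with rescaling (5.67%). They became 11 without LOW RFI 13 (12.8%), 10 without LOW RFI 9 (11.4%) and 8 without LOW RFI 10 (9.32%). They became 2 without LOW RFI 5 (6.63%), LOW RFI 11 (4.96%) or LOW RFI 12 (6.5%), and 3 without LOW RFI 1 (5.8%) or LOW RFI 15 (6.46%).

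Neutrophil genes were lower in 16 of 19 members with a median of -0.54 (-0.28 relative), and 0 had an unadjusted p under 0.05. The calgranulin S100A12 was at 108, 321 and 1768 RPKM in LOW RFI cows, against 994, 861, 181 and 338 RPKM in HIGH RFI cows, a difference of -0.55 (SE 0.58, limma p = 0.355), or 0.0089 without the marked libraries. TREM1, an amplifying receptor, differed by -0.71 (SE 0.53, limma p = 0.193), and HP, haptoglobin, by -0.91 (SE 0.45, limma p = 0.0577). HIGH RFI 1 had the highest HIGH RFI value in 14 of 19 members, and without the marked libraries the median of the list was 0.088, so its sign turned there. Without HIGH RFI 1 the median was -0.085, and without HIGH RFI 4 it was -0.95. Summed levels were 222 to 2993 RPKM in LOW RFI cows, against 507 to 2228 RPKM in HIGH RFI cows.

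Lymphocyte lists lay nearer to all genes. T cell genes were lower in 20 of 22 (median -0.23, 0.028 relative, 0.0084 with quantile normalization), with the receptor chains CD3E and CD3D at -0.096 and -0.097, but both 0.12 under quantile normalization, and 0.037 and 0.036 under rescaling. IL7R, the interleukin 7 receptor, was at 7.51, 21.7 and 52.9 RPKM in LOW RFI cows, against 160.2, 61.2, 35.4 and 27.8 RPKM in HIGH RFI cows, a difference of -1.17 (SE 0.46, limma p = 0.0198), and LAT, a signalling adaptor, differed by -0.58. Of 12 NK and cytotoxic genes, 10 were lower (median -0.38, -0.12 relative). NKG7, a granule protein, was at 17.7, 55.1 and 103 RPKM in LOW RFI cows, against 84.2, 111, 61.9 and 92.8 RPKM in HIGH RFI cows, a difference of -0.71 (SE 0.33, limma p = 0.0442), GNLY, granulysin, differed by -0.89 and the granule protease CTSW by 0.24. B and plasma cell genes were split 5 higher and 6 lower (median -0.049, 0.21 relative, 0.10 with quantile normalization, 0.044 with rescaling). PIGR, which moves immunoglobulin across epithelium, differed by 1.46, and DERL3 of plasma cells by -0.52. HBA, haemoglobin alpha, differed by -0.072 but 0.15 under quantile normalization and 0.028 under rescaling. The T cell median ran from -0.43 (without HIGH RFI 2) to -0.16 (without LOW RFI 10) when single cows were left out, and was -0.12 without the marked libraries and -0.10 with rescaling. T cell members lower at an unadjusted p under 0.05 numbered 0 (without HIGH RFI 1) to 3 (without HIGH RFI 2). In these fits 4.09% and 2.36% of all genes were lower at that p. The NK list median ran from -0.60 (without HIGH RFI 2) to -0.21 (without HIGH RFI 1) when single cows were left out, and was -0.13 with quantile normalization. NK members lower at an unadjusted p under 0.05 numbered 0 to 3. The B cell list median ran from -0.25 (without HIGH RFI 2) to 0.044 (without LOW RFI 10) when single cows were left out, and was 0.033 without the marked libraries. B cell members lower at an unadjusted p under 0.05 numbered 1 to 2.

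All 16 tested genes of MHC class II and dendritic cells were lower (median -0.58, -0.32 relative), with 0 at an unadjusted p under 0.05. CD74, the invariant chain, was at 299, 778 and 2957 RPKM in LOW RFI cows, against 2648, 1909.6, 1619 and 696 RPKM in HIGH RFI cows, a difference of -0.72 (SE 0.50, limma p = 0.167). The class II chains BOLA-DRA and BOLA-DQB differed by -0.60 and -1.43, and the co-stimulator CD80 by -0.57. HIGH RFI 1 was the highest HIGH RFI cow in 13 of these 16 genes and HIGH RFI 4 the lowest in 12. In the MHC class I and immunoproteasome list 17 of 18 were lower (median -0.40, -0.14 relative), with the heavy chain BOLA at -0.42, B2M, beta-2-microglobulin, at -0.18, or 0.15 without the marked libraries, the immunoproteasome subunit PSMB8 at -0.39 and the class I activator NLRC5 at -0.56. BOLA genes are near-identical copies of each other and may share reads. The MHC class II median ran from -0.89 (without HIGH RFI 4) to -0.33 (without HIGH RFI 1) when single cows were left out, and was -0.24 without the marked libraries and -0.35 with quantile normalization. MHC class II members lower at an unadjusted p under 0.05 numbered 0 to 4 (without HIGH RFI 4, 14.6% of all genes). The MHC class I median was -0.068 without the marked libraries and -0.20 with quantile normalization.

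Interferon response genes had the lowest median of all 38 lists and were lower in LOW RFI in 48 of 49 members, with a median of -0.89 (-0.63 relative). An unadjusted p under 0.05 was found for 26 of them (53.1%, beside 7.72% of all genes), and 0 passed after adjustment. In 20 of 49 members all 13 LOW RFI cows were under the HIGH RFI median, as for 6.28% of all genes. USP18, which removes ISG15 and damps the receptor, was at 2.58, 5.78 and 7.33 RPKM in LOW RFI cows, against 10.00, 7.87, 19.5 and 6.22 RPKM in HIGH RFI cows, a difference of -0.91 (SE 0.29, limma p = 0.00508). GBP4, a guanylate-binding protein, had the smallest p of the list, at 0.137, 0.377 and 1.2 RPKM in LOW RFI cows, against 1.94, 1.43, 5.44 and 0.180 RPKM in HIGH RFI cows, a difference of -0.95 (SE 0.27, limma p = 0.00233). ISG15 itself was at 21.5, 53.9 and 312 RPKM in LOW RFI cows, against 231, 121, 432 and 33.8 RPKM in HIGH RFI cows, a difference of -1.13 (SE 0.58, limma p = 0.0643). HIGH RFI 3 held the highest USP18, GBP4 and ISG15, and HIGH RFI 4 lay among the LOW RFI cows in all of them.

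The HIGH RFI cows held similar places in most members of the list. HIGH RFI 3 had the highest HIGH RFI value in 33 of 49 members and HIGH RFI 1 in 15, while HIGH RFI 4 had the lowest in 39 and lay below the LOW RFI median in 33. The list score, in the same unit as above, was 2.07, 2.98 and 3.93 in LOW RFI cows, against 4.25, 3.62, 4.62 and 2.62 in HIGH RFI cows, and all 13 LOW RFI cows were under the HIGH RFI median. By month it differed by -0.71 in September, -2.03 in November and 0.21 in December, so its sign turned in the month of HIGH RFI 4. Left out in turn, HIGH RFI 3 gave a median of -0.59 with 7 members at a p under 0.05 (6.07% of all genes), HIGH RFI 1 gave -0.74 with 10 (4.09%), and HIGH RFI 4 gave -1.24 with 36 (14.6%). With quantile normalization 19 members had such a p (2.04% of all genes were lower at that p), and without the marked libraries 9 did (2.81%), at a median of -0.64. Macrophage markers, lower in the same cows' comparison, had summed levels of 2940.4 to 29432 RPKM in LOW RFI cows, against 10898 to 21655 RPKM in HIGH RFI cows, and their part in the interferon and cell cycle differences was not tested.

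Several other members, chosen after their values were seen, show the spread by role. Of the RNA sensors, DDX58 (RIG-I) was at 0.454, 1.16 and 5.06 RPKM in LOW RFI cows, against 9.63, 6.25, 10.8 and 0.615 RPKM in HIGH RFI cows, a difference of -1.29 (SE 0.41, limma p = 0.00536), and IFIH1 (MDA5) differed by -1.12 (SE 0.43, limma p = 0.0181). Among the effectors, IFIT1, which blocks translation of viral RNA, was at 0.975, 3.57 and 30.3 RPKM in LOW RFI cows, against 36.9, 17.4, 29.9 and 1.11 RPKM in HIGH RFI cows, a difference of -1.67 (SE 0.65, limma p = 0.0180). MX1, an antiviral GTPase, differed by -1.24 (SE 0.65, limma p = 0.0723) and EIF2AK2, the kinase PKR, by -1.27 (SE 0.45, limma p = 0.0108). The 1 member that was not lower, ISG20, differed by 0.0037. ISG12(B), of the interferon-inducible IFI27 family and outside the list, was among the 10 genes of smallest p, at 8.60, 15.3 and 39.5 RPKM in LOW RFI cows, against 20.5, 41.1, 33.9 and 88.3 RPKM in HIGH RFI cows, a difference of -1.19 (SE 0.32, limma p = 0.00148), and its highest cow was HIGH RFI 4, unlike the list. Near-identical copies such as the OAS1 genes or ISG12(B) and IFI27 may share reads.

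**Figure D3:**
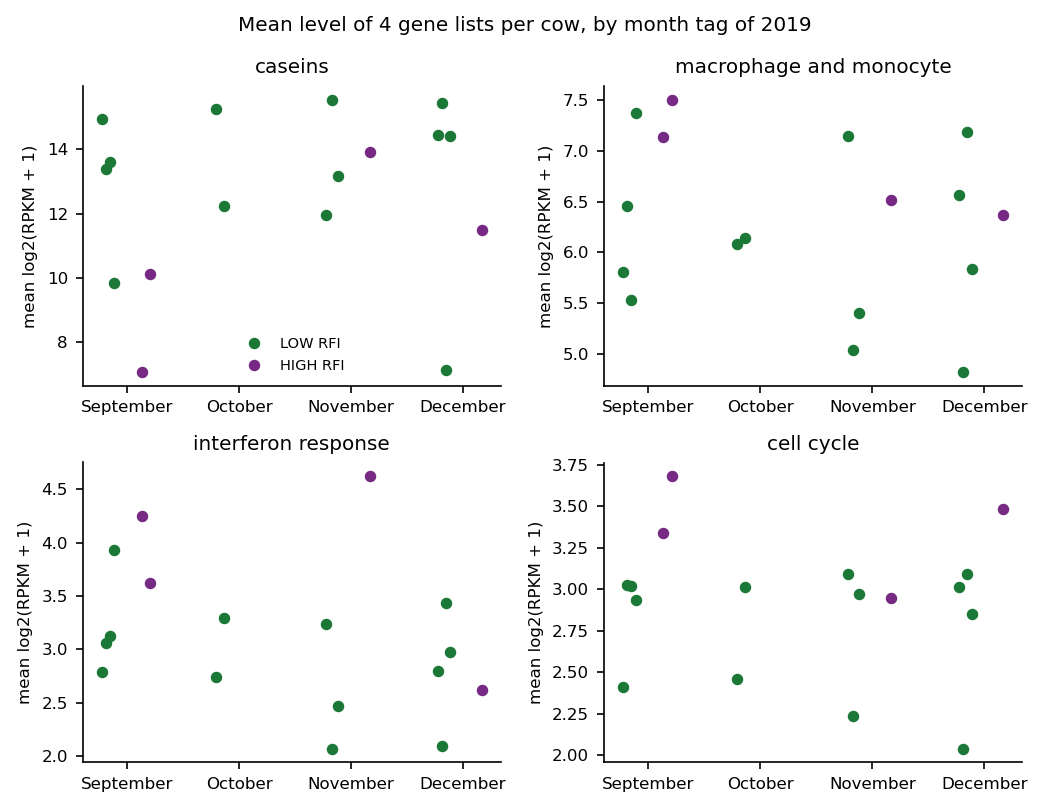
Mean log2(RPKM + 1) of 4 lists over their tested members (y axes) for each cow by month tag (x axes), LOW RFI in green left of HIGH RFI in purple. The interferon score of the November HIGH RFI cow, 4.62, lies above all others, and that of the December HIGH RFI cow, 2.62, among LOW RFI cows, while October holds no HIGH RFI cow.

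Other innate immunity lists were lower in most members without a like number of small p. Of 37 interleukin, chemokine and NF-kB genes, 33 were lower (median -0.39, -0.13 relative), and HIGH RFI 1 was the highest HIGH RFI cow in 34. CCL2, a chemokine that draws monocytes, was at 49.1, 170.0 and 1269 RPKM in LOW RFI cows, against 1062, 945, 182 and 230.0 RPKM in HIGH RFI cows, a difference of -1.25 (SE 0.69, limma p = 0.0850), IL1RN, the interleukin 1 receptor antagonist, differed by -1.02, and PYCARD, the inflammasome adaptor, by -0.89 (SE 0.42, limma p = 0.0436). Leaving out each cow moved the list's median between -0.65 and 0.13, the lowest without HIGH RFI 3 and the highest without HIGH RFI 1, and without the marked libraries it was 0.092, so its sign was not kept. Pattern recognition genes were lower in all 20 (median -0.49, -0.23 relative). TLR3, a sensor of double-stranded RNA, was at 0.250, 0.758 and 2.00 RPKM in LOW RFI cows, against 3.30, 2.68, 1.93 and 0.393 RPKM in HIGH RFI cows, a difference of -0.69 (SE 0.24, limma p = 0.0106). TLR6 differed by -0.52 (SE 0.21, limma p = 0.0236), the lipopolysaccharide co-receptor CD14 by -0.78 and the adaptor MYD88 by -0.31, or 0.036 without the marked libraries. Of 22 NADPH oxidase, complement and Fc receptor genes, 21 were lower (median -0.60, -0.34 relative), with the integrin ITGB2 at -0.86 (SE 0.41, limma p = 0.0492) and the Fc receptor genes FCER1G and FCGR2A at -0.78 and -0.54. Antimicrobial and acute phase genes had a median of -0.076 (0.19 relative, 0.095 with quantile normalization, 0.035 with rescaling), with the beta-defensin DEFB4A at -0.91, lysozyme LYZ at -0.65, or 0.036 without the marked libraries, and lactoferrin LTF at -0.025, but 0.19 under quantile normalization and 0.11 under rescaling. In September alone, with 4 LOW RFI and 2 HIGH RFI cows, LTF differed by 2.29 (unadjusted limma p = 0.00815). The pattern recognition median ran from -0.71 (without HIGH RFI 4) to -0.22 (without HIGH RFI 1) when single cows were left out, and was -0.20 without the marked libraries and -0.25 with quantile normalization. Pattern recognition members lower at an unadjusted p under 0.05 numbered 0 (without HIGH RFI 1 or HIGH RFI 2) to 6 (without HIGH RFI 4). In these fits 4.09%, 2.36% and 14.6% of all genes were lower at that p. The NADPH oxidase list median was -0.23 without the marked libraries and -0.39 with quantile normalization. NADPH oxidase members lower at an unadjusted p under 0.05 numbered 0 to 5 (without LOW RFI 10 or LOW RFI 9). Without these cows 9.32% and 11.4% of all genes were lower at that p. The antimicrobial list median ran from -0.27 (without LOW RFI 9) to -0.0043 (without LOW RFI 13) when single cows were left out, and was 0.036 without the marked libraries. Antimicrobial members lower at an unadjusted p under 0.05 numbered 0 to 3 (without LOW RFI 10, 9.32% of all genes).

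Cell cycle genes were the other list with many small p. They were lower in LOW RFI in 32 of 33 members, with a median of -0.60 (-0.33 relative), and 19 had an unadjusted p under 0.05 (57.6%, beside 7.72% of all genes). 0 passed after adjustment. In 15 members all 13 LOW RFI cows were under the HIGH RFI median, as for 6.28% of all genes. CCNA2, the cyclin of S phase and G2, was at 0.621, 2.03 and 3.68 RPKM in LOW RFI cows, against 5.11, 7.39, 2.44 and 4.11 RPKM in HIGH RFI cows, a difference of -0.91 (SE 0.26, limma p = 0.00209). BUB1, a kinase of the spindle checkpoint, was at 0.208, 1.10 and 2.00 RPKM in LOW RFI cows, against 3.90, 4.06, 1.44 and 1.51 RPKM in HIGH RFI cows, a difference of -0.83 (SE 0.25, limma p = 0.00361), and 11 of 13 LOW RFI cows lay below all HIGH RFI cows. The members of highest level had no p under 0.05, with the inhibitor CDKN1A at -0.10, or 0.11 with quantile normalization and 0.033 with rescaling, and the cyclin CCND3 at 0.024. The cell cycle median was -0.37 without the marked libraries and -0.31 with quantile normalization.

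Further members of the cycle list, chosen after their values were seen, are given by phase. For S phase, RRM2, which makes deoxyribonucleotides, was at 1.04, 6.04 and 7.88 RPKM in LOW RFI cows, against 14.3, 16.1, 5.67 and 10.9 RPKM in HIGH RFI cows, a difference of -1.11 (SE 0.36, limma p = 0.00532), and the helicase subunit MCM2 differed by -0.79 (SE 0.29, limma p = 0.0133), but PCNA, the sliding clamp, by -0.14 (SE 0.31, limma p = 0.646), or 0.12 with quantile normalization, 0.031 without the marked libraries and 0.073 without HIGH RFI 2. For mitosis, MKI67, the proliferation marker, was at 0.465, 2.18 and 6.62 RPKM in LOW RFI cows, against 11.2, 7.08, 3.33 and 4.84 RPKM in HIGH RFI cows, a difference of -1.10 (SE 0.37, limma p = 0.00706), and TOP2A, which untangles chromosomes, differed by -1.09 (SE 0.37, limma p = 0.00742). The mitotic kinase CDK1 and its cyclin CCNB1 differed by -0.74 and -0.93. HIGH RFI 2 was the highest HIGH RFI cow in 16 members and HIGH RFI 4 in 14, while HIGH RFI 3 was the lowest in 20, an order unlike that of the interferon list. The list score was 2.04, 2.97 and 3.09 in LOW RFI cows, against 3.34, 3.68, 2.94 and 3.48 in HIGH RFI cows, with the HIGH RFI median above all 13 LOW RFI cows. By month it differed by -0.66 in September, -0.18 in November and -0.73 in December. The 19 became 12 with quantile normalization (2.04% of all genes), 15 without the marked libraries (2.81%) and 9 without HIGH RFI 2 (2.36% of all genes).

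Outside the list, 2 of the 10 genes of smallest p that were lower are also known from dividing cells. PBK, a mitotic kinase, was at 0.309, 0.837 and 1.89 RPKM in LOW RFI cows, against 2.83, 4.71, 1.19 and 1.11 RPKM in HIGH RFI cows, a difference of -0.85 (SE 0.24, limma p = 0.00180), and PRR11 differed by -0.69 (SE 0.18, limma p = 0.00114). Apoptosis genes were lower in 19 of 21 (median -0.41, -0.15 relative), with 4 at a p under 0.05, beside 7.72% of all genes, among them the inhibitors XIAP and BCL2. XIAP differed by -0.70 (SE 0.25, limma p = 0.0114) and BCL2 by -0.75 (SE 0.29, limma p = 0.0177). The survival factor MCL1 and the adaptor FADD differed by -0.42 and -0.13, with FADD at 0.075 with quantile normalization and 0.0043 with rescaling. The apoptosis median ran from -0.57 (without HIGH RFI 4) to -0.19 (without HIGH RFI 1) when single cows were left out, and was -0.19 without the marked libraries and -0.18 with quantile normalization. Apoptosis members lower at an unadjusted p under 0.05 numbered 1 (without HIGH RFI 1) to 4.

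Of the 10 lower genes with the smallest p the rest were mostly of low level, with a median of 96 to 1821 reads behind all 10. CDSN, corneodesmosin, an adhesion protein of cornified epithelium, had the smallest p, at 0.0216, 0.469 and 1.29 RPKM in LOW RFI cows, against 1.81, 4.46, 1.09 and 2.85 RPKM in HIGH RFI cows, a difference of -1.10 (SE 0.25, limma p = 0.000314). MCOLN3, a cation channel of endosomes and lysosomes, was at 0.199, 1.14 and 2.49 RPKM in LOW RFI cows, against 5.08, 4.48, 1.96 and 3.41 RPKM in HIGH RFI cows, a difference of -1.11 (SE 0.26, limma p = 0.000351). TNFSF10, the death ligand TRAIL, was at 0.416, 1.40 and 3.22 RPKM in LOW RFI cows, against 4.65, 4.56, 6.30 and 2.52 RPKM in HIGH RFI cows, a difference of -1.10 (SE 0.26, limma p = 0.000377). All 13 LOW RFI cows were under the HIGH RFI median for these 3 genes, with some overlap at HIGH RFI 3 for CDSN and MCOLN3 and at HIGH RFI 4 for TNFSF10. ATP8B4, of the phospholipid flippase family, was at 0.147, 0.361 and 1.06 RPKM in LOW RFI cows, against 3.68, 1.96, 2.06 and 0.216 RPKM in HIGH RFI cows, a difference of -0.93 (SE 0.24, limma p = 0.000982). HIGH RFI 4 lay at the low end for ATP8B4, and without that cow the difference was -1.31 with an adjusted limma p of 0.0279, the only call in the fits run for this comparison. BGN, the proteoglycan biglycan, was at 1.26, 2.81 and 5.47 RPKM in LOW RFI cows, against 3.83, 5.70, 5.79 and 6.18 RPKM in HIGH RFI cows, a difference of -0.88 (SE 0.24, limma p = 0.00179).

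Groups did not overlap for 2 genes (0.0176% of all tested), both lower in LOW RFI, and for 0 genes in the other direction. ZMAT3, an RNA-binding target of p53, was at 0.476, 1.01 and 1.72 RPKM in LOW RFI cows, against 2.28, 1.94, 2.60 and 1.81 RPKM in HIGH RFI cows, a difference of -0.62 (SE 0.17, limma p = 0.00169). LCAT, which esterifies cholesterol on lipoproteins, was at 0.660, 2.52 and 3.54 RPKM in LOW RFI cows, against 3.63, 5.05, 3.77 and 9.87 RPKM in HIGH RFI cows, a difference of -0.89 (SE 0.25, limma p = 0.00197). The highest LOW RFI cow and the lowest HIGH RFI cow were close together for both. Neither passed, as the adjusted p of all 10 genes in this direction was 0.487.

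**Figure D4:**
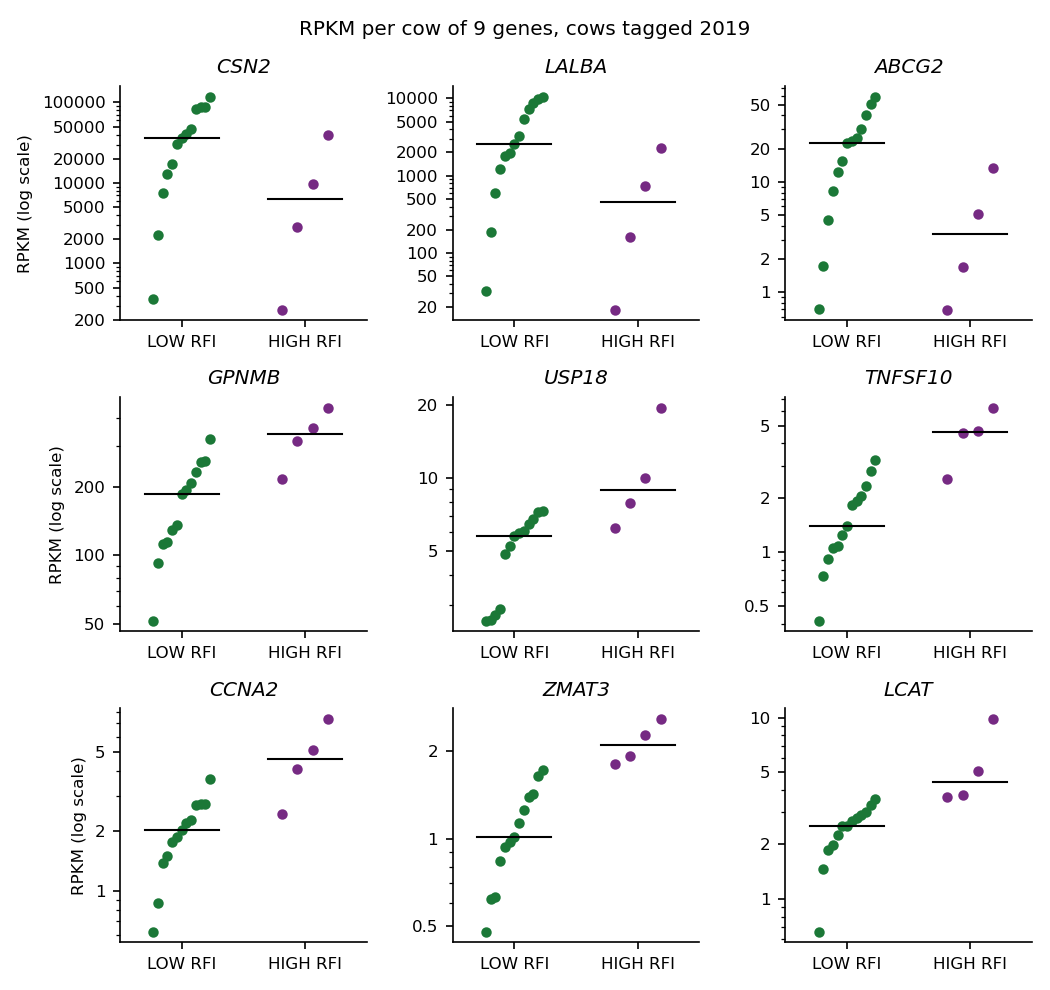
RPKM (log axes) of 9 genes in each of the 13 LOW RFI (left, green) and 4 HIGH RFI (right, purple) cows with a 19 tag, with the group median as a line and points spread sideways by rank. The groups overlap for CSN2, LALBA, ABCG2, GPNMB, USP18, TNFSF10 and CCNA2, and do not overlap for ZMAT3 and LCAT.

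The 10 higher genes with the smallest p included CSN1S2, ATP2C2 and ABCG2 of milk secretion and MVK of cholesterol synthesis, all given above. RGS2, a brake on G protein signalling, had the smallest p at 0.0928, 14.5 and 67.1 RPKM in LOW RFI cows, against 0.0483, 0.253, 21.7 and 0.0204 RPKM in HIGH RFI cows, a difference of 2.41 (SE 0.97, limma p = 0.0213). HIGH RFI 3 stood with the LOW RFI cows there and the other HIGH RFI cows were at or under 0.253 RPKM. H2BC4, a histone H2B, was at 6.94, 33.0 and 99.3 RPKM in LOW RFI cows, against 1.80, 6.54, 31.1 and 20.4 RPKM in HIGH RFI cows, a difference of 1.54 (SE 0.64, limma p = 0.0270), and SDC2, a heparan sulfate proteoglycan, differed by 1.64 (SE 0.72, limma p = 0.0326). ERCC5, a DNA repair endonuclease, was at 4.87, 9.80 and 16.9 RPKM in LOW RFI cows, against 4.66, 5.75, 6.70 and 6.09 RPKM in HIGH RFI cows, a difference of 0.59 (SE 0.25, limma p = 0.0279), with 11 of 13 LOW RFI cows above all HIGH RFI cows. ENSBTAG00000048456 and ENSBTAG00000005146, which have no symbol in the reference table, differed by 0.79 and 0.89. None of the 10 was as large without the marked libraries, where all had p values of 0.0681 or more, with differences of 1.78 for CSN1S2 and 2.34 for RGS2.

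Lists of energy metabolism held 0 to 2 members each with an unadjusted p under 0.05, all lower, beside 7.72% of all genes. Glycolysis genes were lower in 20 of 22 (median -0.47, -0.21 relative), with the hexokinases HK2 at -0.84 (SE 0.38, limma p = 0.0380) and HK3 at -1.01, GAPDH at -0.44 and ENO1 at -0.58. Mitochondrial fatty acid oxidation genes were lower in all 19 (median -0.34, -0.079 relative). CPT1B, which admits fatty acids to mitochondria, was at 0.824, 2.54 and 4.69 RPKM in LOW RFI cows, against 2.44, 8.50, 3.14 and 8.26 RPKM in HIGH RFI cows, a difference of -0.80 (SE 0.32, limma p = 0.0198), the transcription factor PPARD differed by -0.64 (SE 0.29, limma p = 0.0411), and the enzymes ACADVL and HADH by -0.53 and -0.25. Transcripts of the mitochondrial genome were lower in all 13 (median -0.50, -0.24 relative) and took 2.40 ± 1.12% of all RPKM in LOW RFI (SD, n = 13) and 3.38 ± 0.942% in HIGH RFI (SD, n = 4; two-sided exact permutation p = 0.150, or 0.0396 without LOW RFI 12), with COX1, COX3, CYTB and ND4L at -0.53, -0.50, -0.58 and -0.66. Nuclear respiratory chain subunits had a median of -0.046 (0.22 relative, 0.16 with quantile normalization, 0.088 with rescaling), with SDHD at -0.54, COX5A at -0.32, ATP5F1B at -0.23 and COX4I1 at -0.026, the last at 0.12 under quantile normalization and 0.11 under rescaling. The glycolysis median was -0.17 without the marked libraries and -0.29 with quantile normalization. Glycolysis members lower at an unadjusted p under 0.05 numbered 0 to 2 with single cows left out. The fatty acid oxidation median was -0.22 without the marked libraries, -0.064 with quantile normalization and -0.21 with rescaling. Fatty acid oxidation members lower at an unadjusted p under 0.05 numbered 0 (without HIGH RFI 2) to 5 (without LOW RFI 13). In these fits 2.36% and 12.8% of all genes were lower at that p. The mitochondrial genome median was -0.20 without the marked libraries. Mitochondrial genome members lower at an unadjusted p under 0.05 numbered 0 to 4 (without LOW RFI 12, 6.5% of all genes). The respiratory chain median ran from -0.22 (without HIGH RFI 1) to 0.056 (without HIGH RFI 4) when single cows were left out, and was -0.000087 without the marked libraries.

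Cytosolic ribosomal protein genes were higher in 57 of 58 members by a small amount (median 0.29, 0.55 relative), with 0 at an unadjusted p under 0.05. RPL11, RPLP1 and RPLP0 differed by 0.54, 0.44 and 0.21. HIGH RFI 1 was the lowest HIGH RFI cow in 49 of 58 members and HIGH RFI 4 the highest in 50. Mitochondrial ribosomal proteins had a median of -0.10 (0.16 relative, 0.15 with quantile normalization, 0.025 with rescaling; MRPL12 -0.45, MRPS12 -0.29, MRPS26 0.069, MRPL40 -0.0031, the last at 0.20 with quantile normalization and 0.13 with rescaling). The proteasome list had a median of -0.20 (0.064 relative, 0.019 with quantile normalization; PSMA6 -0.64, PSMB2 -0.31, PSMB1 -0.15 and PSMA7 -0.065, with PSMA7 at 0.13 and PSMB1 at 0.071 under quantile normalization and PSMA7 at 0.070 with rescaling). The cytosolic ribosomal median ran from 0.15 (without HIGH RFI 1) to 0.44 (without HIGH RFI 4) when single cows were left out. The mitochondrial ribosomal median ran from -0.22 (without HIGH RFI 1) to 0.0079 (without HIGH RFI 4) when single cows were left out, and was -0.019 without the marked libraries. The proteasome median ran from -0.23 (without HIGH RFI 1) to -0.076 (without HIGH RFI 2) when single cows were left out, and was -0.079 without the marked libraries and -0.068 with rescaling. Proteasome members lower at an unadjusted p under 0.05 numbered 0 to 2 (without HIGH RFI 4, 14.6% of all genes).

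Stress lists had medians near that of all genes. Glutathione, thioredoxin and superoxide genes were lower in 25 of 31, beside 82.3% of all genes (median -0.29, -0.027 relative), with 3 at a p under 0.05, beside 7.72% of all genes. GPX3, the secreted glutathione peroxidase, was at 3.89, 7.70 and 16.0 RPKM in LOW RFI cows, against 10.6, 15.0, 11.2 and 33.7 RPKM in HIGH RFI cows, a difference of -0.88 (SE 0.33, limma p = 0.0149). GPX1, its cytosolic relative, was at 226, 453 and 735 RPKM in LOW RFI cows, against 573, 841, 534 and 1053 RPKM in HIGH RFI cows, a difference of -0.68 (SE 0.28, limma p = 0.0221), and PRDX1, a peroxiredoxin, differed by -0.56. For each of both GPX genes, 10 of 13 LOW RFI cows lay below all 4 HIGH RFI cows. Cytosolic heat shock genes had a median of -0.29 (-0.029 relative), with the regulator HSF2 at -0.58 (SE 0.24, limma p = 0.0269), the co-chaperone CHORDC1 at -0.80 (SE 0.36, limma p = 0.0406), HSPB1 at -0.36 and HSPA8 at -0.055, the last at 0.00085 with quantile normalization and 0.080 with rescaling. Immediate early and stress transcription factors had a median of -0.15 (0.11 relative, 0.054 with quantile normalization), with EGR2 at -0.98, NR4A2 at 0.79, JUND at 0.18 and JUN at -0.15, or 0.054 with quantile normalization. Among plasmin and matrix metalloproteinase genes (median -0.29, -0.025 relative), MMP19 was at 43.9, 208 and 492 RPKM in LOW RFI cows, against 343, 553, 279.9 and 627 RPKM in HIGH RFI cows, a difference of -1.05 (SE 0.45, limma p = 0.0315), MMP14 differed by -1.0 and the inhibitor TIMP2 by -0.42. The glutathione list median was -0.13 without the marked libraries, -0.054 with quantile normalization and -0.16 with rescaling. Glutathione members lower at an unadjusted p under 0.05 numbered 0 (without HIGH RFI 4, 14.6% of all genes) to 4. The heat shock median ran from -0.37 (without HIGH RFI 4) to -0.15 (without LOW RFI 1) when single cows were left out, and was -0.052 with quantile normalization and -0.16 with rescaling. Heat shock members lower at an unadjusted p under 0.05 numbered 0 (without HIGH RFI 1 or HIGH RFI 2) to 5 (without HIGH RFI 4). Of all genes, 4.09%, 2.36% and 14.6% were lower at that p in these fits. The immediate early median ran from -0.28 (without HIGH RFI 2) to 0.035 (without HIGH RFI 1) when single cows were left out, and was 0.13 without the marked libraries and -0.025 with rescaling. The metalloproteinase median ran from -0.43 (without LOW RFI 10) to -0.11 (without HIGH RFI 1) when single cows were left out, and was -0.0091 without the marked libraries, -0.075 with quantile normalization and -0.15 with rescaling. Metalloproteinase members lower at an unadjusted p under 0.05 numbered 0 (without HIGH RFI 2 or HIGH RFI 4) to 2. Without HIGH RFI 2 and HIGH RFI 4, 2.36% and 14.6% of all genes were lower at that p.

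The number of features at 1 RPKM or more was 10261 ± 566 in LOW RFI (SD, n = 13) and 10758 ± 172 in HIGH RFI (SD, n = 4), a difference of -497 (two-sided exact permutation p = 0.0597). It was lower in LOW RFI without the marked libraries too, by 355 features (exact permutation p = 0.0485). Leaving out HIGH RFI 4, LOW RFI 5 or LOW RFI 6 gave exact permutation p values of 0.0393, 0.0451 and 0.0209, and HIGH RFI 3 one of 0.186. The 3 LOW RFI libraries with the fewest features carried the mark and lay at 9033 to 9805. The library with the most features of all 17, LOW RFI 6 at 10970, carried it too, as did LOW RFI 7 and 15 at 10658 and 10681.

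The comparison within the 19 tags was set beside that of the 22 cows with a 20 tag, 9 LOW RFI and 13 HIGH RFI, which share no cow with it. The difference of both differences was fitted over all 39 cows and 11792 genes. Limma called 0 genes for it (0.0%), and 18 had an unadjusted p under 0.05 (0.153%). In that same fit over 39 cows, limma called 0 genes within the 20 tags and 280 had an unadjusted p under 0.05 (2.37%). The 898 of the 19 tags came from a fit of those 17 cows alone. With one fit over all 39 cows, 276 of 11334 genes had such a p within the 19 tags. Year, month and whatever goes with them cannot be told apart. Casein genes had a median of 2.51 in the 19 tags and 0.77 in the 20 tags, interferon response genes -0.89 and -0.62, cell cycle genes -0.60 and -0.37, and neutrophil genes -0.54 and -1.17. The direction of these 4 medians was the same in both years. That of 4 other lists was not, at 0.34 in the 19 tags and -0.039 in the 20 tags for cholesterol synthesis, 0.072 and -0.058 for mammary epithelium, 0.064 and -0.030 for fatty acid synthesis, and -0.29 and 0.029 for fatty acid uptake. These directions are relative to 0. Over all genes the median was -0.26 in the 19 tags and -0.19 in the 20 tags, where 9579 of 11792 genes were lower. Beside these medians, cholesterol synthesis, mammary epithelium, fatty acid synthesis and casein genes lay above all genes in both years. Interferon response, cell cycle and neutrophil genes lay below in both, and fatty acid uptake below in the 19 tags and above in the 20 tags. No test was made of the lists.

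The 5 genes of smallest p for the difference between years were led by OAS2, which makes the 2-5A messenger of antiviral defence. Within the 19 tags OAS2 was at 0.0687, 0.452 and 1.13 RPKM in LOW RFI cows, against 1.84, 1.12, 5.50 and 0.199 RPKM in HIGH RFI cows, and it averaged 0.505 ± 0.302 RPKM in LOW RFI (SD, n = 13) and 2.16 ± 2.32 RPKM in HIGH RFI (SD, n = 4). Within the 20 tags it averaged 0.80 ± 0.571 RPKM in LOW RFI (SD, n = 9) and 0.668 ± 0.538 RPKM in HIGH RFI (SD, n = 13). The difference between years was -0.93 (SE 0.33, limma p = 0.00768, adjusted p = 1.00). CEP95, a centrosomal protein, averaged 2.19 ± 0.945 RPKM in LOW RFI and 3.45 ± 1.65 RPKM in HIGH RFI cows of the 19 tags, against 3.27 ± 0.962 RPKM in LOW RFI and 2.47 ± 0.746 RPKM in HIGH RFI cows of the 20 tags. CDSN, ENSBTAG00000025219 and ENSBTAG00000007966 had differences between years of -0.74, -0.67 and -0.55. None passed, at an adjusted p of 1.00 for all 5.

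**Figure D5:**
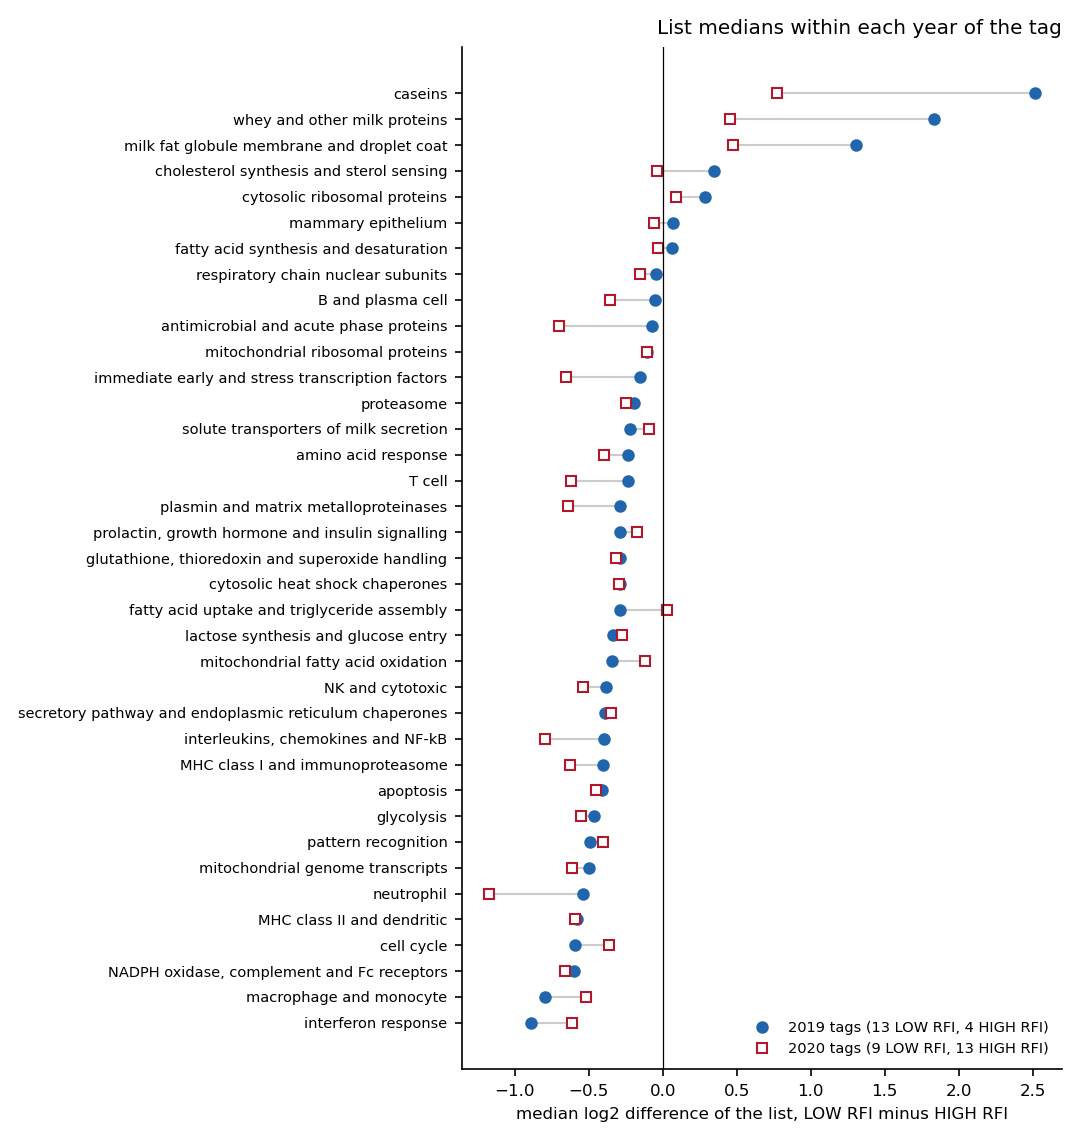
Median log2 difference, LOW RFI minus HIGH RFI (x axis), of each gene list with at least 4 tested members (rows) within the 19 tags (filled circles, 13 LOW RFI and 4 HIGH RFI cows) and within the 20 tags (open squares, 9 LOW RFI and 13 HIGH RFI cows). Casein genes lie at 2.51 and 0.77, and interferon response genes at -0.89 and -0.62.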

How the data were processed

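Milk somatic cell RNA of 39 cows was sequenced. The authors deposited RPKM per feature for each cow (reads scaled by gene length and by mapped reads), and per the submitters' processing notes the build was ARS-UCD1.2. No aligner, counter, annotation or strand setting is named in the sources used here, and values of near-identical or overlapping genes may share reads. Whole reads were recovered from the RPKM steps, and the totals give the depth. For all 19041 features above 0 a length was found that gave whole reads within 0.02 reads plus the rounding of the values. Features above 0 in few cows can nearly always meet this at some length, so for them it is no check. Symbols come from the table, and names of unnamed identifiers were looked up in a RefSeq table of ARS-UCD2.0.

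The 13 LOW RFI and 4 HIGH RFI cows were compared with limma 3.58.1 in R 4.3.3 (limma-trend, robust, Benjamini-Hochberg adjustment) on log2(RPKM + 1), for genes at 1 RPKM or more in at least 4 cows. Single values used two-sided exact permutation tests (Python 3.11.15, SciPy 1.17.1). P-values measure the spread between cows, 1 library each. Scripts were tested on simulated data. Rescaling brought each library to a common sum without both milk protein lists. The alternatives were another pseudocount, filter, scaling, covariates, subsets of cows, array weights and limma-voom on the recovered reads. The gene lists and the genes in them were chosen with earlier results of these data known. Named genes were the 10 of smallest p in each direction with at most 2 unnamed identifiers in each, in each list the 2 of highest level and the 2 of smallest p, the 5 features of highest level and the 5 of smallest p between years. Others are said to be chosen after their values were seen. Some genes that this rule names are not reported here.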

Additional observations from a re-analysis of the deposited data

Results flagged for a closer look

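In 3 of 170 groups of 4 HIGH RFI cows, 1 cow stood far from the other 3 by a Dixon test at 95%. Chance alone flags about 1 in 20 such groups. RGS2 was at 21.7 RPKM in HIGH RFI 3, and at 0.0204 to 0.253 RPKM in the other HIGH RFI cows. CTSW was at 97.8 RPKM in HIGH RFI 4, and at 41.5 to 47.0 RPKM in the others. CHORDC1 was at 2.96 RPKM in HIGH RFI 4, and at 11.8 to 13.4 RPKM in the others.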

How the results depend on the processing

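No paired analysis was possible because replicate numbers follow label order and pair no animals. Called genes stayed at 0 under every alternative but leaving out HIGH RFI 4, which called ATP8B4 alone, and the difference between years stayed at 0 but for 1 call with no filter on low values (SLC36A2, at 0.00145 and 0.0183 RPKM in LOW RFI and HIGH RFI cows of the 19 tags, adjusted limma p = 0.0400). Genes lower and higher in LOW RFI at an unadjusted p under 0.05 numbered 1446 and 231 in September only, 1794 and 77 with array weights, 575 and 18 with epithelium and neutrophil scores, 722 and 15 with limma-voom, 547 and 3 with month as a factor, 1535 and 22 with no filter, 266 and 10 in one fit over 39 cows, 231 and 161 with quantile normalization, 643 and 38 with rescaling and 318 and 1 without marked libraries. Added after seeing the data, quantile normalization with month gave 139 and 77, leaving out October 863 and 10, and leaving out marked libraries with rescaling 339 and 2. Leaving out each cow gave 268 (without HIGH RFI 2) to 1655 (without HIGH RFI 4) lower and 1 to 148 (without HIGH RFI 3) higher, 12.4 to 20.5 points for the milk protein share, and -566 to -395 features at 1 RPKM, an alternative also added after seeing the data, as was -355 features (exact permutation p = 0.0485) without marked libraries.

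Of 164 named genes tested, 132 kept their sign under every alternative, and 178 of 5229 gene values turned. In September only, the difference was 0.48 for SREBF2, 1.21 for CLDN4, -0.038 for ATF4, 0.071 for CEBPB, 0.55 for CD3E, 0.49 for CD3D, 0.31 for LAT, 0.60 for HBA, 0.20 for NLRC5, 0.073 for PSMB8, 2.29 for LTF, 0.23 for JUN, 0.030 for HSPB1, 0.026 for ATP5F1B, 0.27 for CDKN1A. LTF alone among these had an unadjusted limma p under 0.05, at 0.00815, and no gene passed after adjustment in September. With array weights, the difference was 0.16 for CEBPB, 0.025 for CD3E, 0.028 for CD3D, 0.054 for HSPA8, 0.086 for COX4I1, 0.13 for MRPL40, 0.029 for PSMA7, 0.11 for CDKN1A. With epithelium and neutrophil scores as covariates, the difference was 0.11 for SLC2A3, -0.023 for EIF4EBP1, 0.16 for CEBPB, 0.077 for HSPA8, -0.0047 for MRPS26, -0.12 for CCND3. With month as a factor, the difference was 0.0050 for SREBF2, -0.039 for ATF4, 0.046 for CEBPB, 0.0051 for CD3E, 0.053 for CD3D, -0.024 for MRPS26. With quantile normalization, the difference was 0.16 for SREBF2, 0.17 for CLDN4, 0.095 for CEBPB, 0.12 for CD3E, 0.12 for CD3D, 0.15 for HBA, 0.19 for LTF, 0.054 for JUN, 0.00085 for HSPA8, 0.12 for COX4I1, 0.20 for MRPL40, 0.13 for PSMA7, 0.071 for PSMB1, 0.11 for CDKN1A, 0.075 for FADD, 0.12 for PCNA. With quantile normalization and month, the difference was 0.11 for SLC2A3, 0.23 for SREBF2, 0.12 for CLDN4, 0.25 for CEBPB, 0.23 for CD3E, 0.28 for CD3D, 0.19 for HBA, 0.032 for MYD88, 0.19 for LTF, 0.037 for JUN, 0.11 for COX4I1, 0.031 for ATP5F1B, 0.16 for MRPL40, 0.088 for PSMA7, 0.024 for PSMB1, 0.048 for CDKN1A, 0.072 for FADD, 0.10 for PCNA. With rescaling, the difference was 0.074 for SREBF2, 0.070 for CLDN4, 0.028 for CEBPB, 0.037 for CD3E, 0.036 for CD3D, 0.028 for HBA, 0.11 for LTF, 0.080 for HSPA8, 0.11 for COX4I1, 0.13 for MRPL40, 0.070 for PSMA7, 0.033 for CDKN1A, 0.0043 for FADD. Without October, the difference was -0.050 for ATF4, 0.0016 for CD3E, 0.061 for CD3D, 0.016 for COX4I1, 0.017 for MRPL40. Without marked libraries, the difference was 0.34 for SLC2A3, 0.093 for SREBF2, -0.078 for EIF4EBP1, 0.36 for CEBPB, 0.0089 for S100A12, 0.048 for CD3E, 0.028 for CD3D, 0.016 for HBA, 0.15 for B2M, 0.036 for MYD88, 0.036 for LYZ, 0.18 for HSPA8, 0.016 for COX4I1, 0.016 for MRPL40, 0.063 for PSMA7, 0.031 for PCNA. Without marked libraries and rescaled, the difference was 0.35 for SLC2A3, 0.098 for SREBF2, -0.072 for EIF4EBP1, 0.37 for CEBPB, 0.014 for S100A12, 0.054 for CD3E, 0.034 for CD3D, 0.012 for HBA, 0.15 for B2M, 0.042 for MYD88, 0.041 for LYZ, 0.0055 for JUN, 0.19 for HSPA8, 0.022 for COX4I1, 0.022 for MRPL40, 0.069 for PSMA7, 0.036 for PCNA. Leaving out each cow in turn gave -0.062 to 0.10 for ATF4, -0.29 to 0.28 for CCND3, -0.27 to 0.089 for CD3D, -0.24 to 0.11 for CD3E, -0.34 to 0.23 for CDKN1A, -0.29 to 0.24 for CEBPB, -0.48 to 0.27 for CLDN4, -0.20 to 0.13 for COX4I1, -0.054 to 0.20 for EIF4EBP1, -0.45 to 0.53 for HBA, -0.11 to 0.027 for HSPA8, -0.70 to 0.74 for LTF, -0.18 to 0.17 for MRPL40, -0.14 to 0.23 for MRPS26, -0.33 to 0.073 for PCNA, -0.011 to 0.26 for PLIN2, -0.18 to 0.074 for PSMA7, -0.0018 to 0.39 for RPLP0, -0.56 to 0.16 for SLC2A3, -0.18 to 0.079 for SREBF2. The cause of these changes was not tested. Low genes were limited by depth, with a lowest median of 53 reads among the 10 genes of smallest p that were higher.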
